A study of Mus musculus with 38 samples.

Results

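The genes described here are the integrin and laminin subunit genes of the mouse, chosen by symbol: Itga or Itgb followed by a number or a single letter, and Lama, Lamb or Lamc followed by a number. There were 36 of them among the 55502 gene IDs of the deposited count tables, 25 for integrins (17 alpha and 8 beta subunits) and 11 for laminins (5 alpha, 3 beta and 3 gamma chains). All 36 were listed in all 3 tables. Another 6 symbols with a similar start (Itga2b, Itgb2l, Itgbl1, Itgb1bp1, Itgb1bp2 and Itgb3bp) fell outside that pattern and were not used.

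Integrins are cell surface receptors made of an alpha and a beta subunit, and they tie the matrix outside a cell to its cytoskeleton. Laminins are trimers of an alpha, a beta and a gamma chain, and they are a main component of the basement membrane on which lung epithelium rests. Laminin-332, to which Lama3 and Lamb3 contribute chains, is bound by the alpha6 beta4 integrin in hemidesmosomes, while the alpha5 chain encoded by Lama5 forms laminins such as laminin-511. The beta6 integrin, which pairs with alpha v on epithelial cells, activates latent TGF-beta in the lung.

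RNA was sequenced in 38 libraries of organoids, clusters of tumour cells that had been taken from mouse lung adenocarcinomas of mixed 129/B6 background and grown in Matrigel, a basement membrane extract that itself contains laminin protein, with L-WRN conditioned medium. Every organoid line came from 1 tumour and carried KrasFSF-G12D and p53frt, together with Rosa-FSF-CreERT2, a Cre recombinase that is active only when 4-hydroxytamoxifen (4-OHT) is present. Lines with Foxa1flox and Foxa2flox gave 5 libraries treated with 2 uM 4-OHT and 5 given vehicle (ethanol), from the 3 lines 1027B, 1027D and 1292B. Lines with Foxa1flox alone gave 6 and 6 (1552A, 1552B and 1552C), and lines with Foxa2flox alone gave 4 and 4 (1267B and 1526C). In a separate experiment, line 1027B, which has both alleles, carried a hairpin against Nkx2-1 (shNKX2-1) or a scrambled hairpin (shScramble), with 2 libraries for each hairpin and treatment. Treatment lasted 72 hours; the labels do not say when RNA was taken. FoxA1 and FoxA2 are forkhead transcription factors and NKX2-1 is the lineage factor of lung epithelium. No library was given 4-OHT without a floxed Foxa allele, so loss of the genes and effects of 4-OHT or Cre itself cannot be told apart.

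Total counts ran from 13.6 to 33.2 M (1e6 counts) per library. Mitochondrial genes took 1.09% to 4.3% of counts in 37 libraries and 11.7% in the library shNKX2-1 4-OHT replicate 2, which therefore stood apart from the rest. Foxa2 stood at 2.59 to 6.17 CPM (counts scaled to a TMM-adjusted library of 1e6) with 4-OHT and 60.5 to 188 CPM with vehicle in double-floxed organoids. It stood at 1.93 to 4.14 CPM with 4-OHT and 73.5 to 122 CPM with vehicle in Foxa2-floxed organoids. Foxa1 stood at 8.89 to 18.3 CPM with 4-OHT and 17.3 to 87.4 CPM with vehicle in double-floxed organoids, and at 13.9 to 17.4 CPM and 41.8 to 80.3 CPM in Foxa1-floxed organoids. Under shScramble, Foxa1 stood at 18.5 to 20.1 CPM with 4-OHT and 22.1 to 32.1 CPM with vehicle, and Foxa2 at 2.26 to 2.58 and 76.8 to 89 CPM. Under shNKX2-1, Foxa1 stood at 19.7 to 21.9 CPM with 4-OHT and 27.3 to 34.1 CPM with vehicle, and Foxa2 at 0.327 to 1.89 and 66.7 to 85.9 CPM. These counts cover whole genes, not the deleted exons. Nkx2-1 was present in every floxed library, at 94 to 362 CPM, and alveolar markers (Sftpb, Sftpc, Abca3, Lamp3 and Nkx2-1) summed to 677 to 5175 CPM with 4-OHT and 2277 to 15570 CPM with vehicle in double-floxed organoids. Markers of epithelium (Epcam, Cdh1, keratins and Cldn4) summed to between 5158 and 21108 CPM in every library. Alveolar type 1 markers (Ager, Hopx, Pdpn, Aqp5 and Rtkn2) summed to 1754 to 3520 CPM with 4-OHT and 753 to 1939 CPM with vehicle in double-floxed organoids, most of it Aqp5. Megakaryocyte markers (Pf4, Ppbp, Gp9, Gp5 and Gp1bb) summed to 86.9 to 113 CPM with 4-OHT and 20.1 to 22.3 CPM with vehicle under shNKX2-1. They summed to 40.2 to 49.9 CPM with 4-OHT and 7.97 to 8.9 CPM with vehicle under shScramble, and to 19 to 123 CPM with 4-OHT and 4.73 to 110 CPM with vehicle in double-floxed organoids. Nearly all of this was Pf4 and Ppbp, Gp1bb being at 0 in all 8 hairpin libraries and Gp9 and Gp5 on at most 8 reads in a hairpin group, and the part of these cells in the results was not tested. Fibroblast and endothelial lists summed to at most 5.06 and 8.9 CPM. Nkx2-1 stood at 181 to 207 CPM with shNKX2-1 and 4-OHT, against 359 to 408 CPM with shScramble and 4-OHT. With vehicle the gap was smaller, at 280 to 350 CPM with shNKX2-1 against 424 to 428 CPM with shScramble.

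Of the 36 genes, 22 had a promoter window (250 bases before to 50 after an annotated start) in RefSeq for GRCm38.p6, in 25 windows. The test for a change was passed in at least 1 comparison below by 6 genes. The matching share of all genes was not counted, and shares per comparison are given below. Of the 6 genes, 4 had a window. Those 4 are shown, with matches to the motifs searched in capitals: the forkhead motif TGTTTAC, the NKX2-1 core CAAGTG, the AP-1 motif TGANTCA and the TEAD motif GGAATG, each on both strands.
Itga2, chr13:114932051-114932350, minus strand: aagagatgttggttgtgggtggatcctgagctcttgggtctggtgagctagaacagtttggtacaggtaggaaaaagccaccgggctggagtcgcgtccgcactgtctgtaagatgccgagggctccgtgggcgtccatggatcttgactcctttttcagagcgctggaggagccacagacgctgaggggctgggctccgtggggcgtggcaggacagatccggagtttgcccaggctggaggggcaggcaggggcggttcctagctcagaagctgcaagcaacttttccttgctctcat
Itga9, chr9:118711442-118711741, plus strand: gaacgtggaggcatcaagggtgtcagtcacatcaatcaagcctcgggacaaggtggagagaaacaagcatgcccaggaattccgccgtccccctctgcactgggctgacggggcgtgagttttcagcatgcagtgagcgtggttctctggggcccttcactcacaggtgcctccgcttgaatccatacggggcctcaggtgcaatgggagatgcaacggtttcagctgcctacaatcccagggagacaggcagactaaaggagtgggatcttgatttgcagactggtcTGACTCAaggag
Itgam, chr7:128062390-128062689, plus strand: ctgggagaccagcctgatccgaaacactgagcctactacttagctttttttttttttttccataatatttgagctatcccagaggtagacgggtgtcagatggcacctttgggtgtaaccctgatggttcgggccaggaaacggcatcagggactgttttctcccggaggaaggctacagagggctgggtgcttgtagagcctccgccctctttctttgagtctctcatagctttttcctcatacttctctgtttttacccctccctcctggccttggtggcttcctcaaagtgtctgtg
Itgb6, chr2:60722554-60722853, minus strand: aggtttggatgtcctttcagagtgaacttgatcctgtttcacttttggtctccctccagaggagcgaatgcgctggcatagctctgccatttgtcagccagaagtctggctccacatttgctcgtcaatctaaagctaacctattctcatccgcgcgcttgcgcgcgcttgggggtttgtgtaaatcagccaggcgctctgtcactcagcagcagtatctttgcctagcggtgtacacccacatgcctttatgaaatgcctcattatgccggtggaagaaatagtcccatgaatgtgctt
The Itga9 window lies within the gene, at an annotated start downstream of its 5′ end, and holds an AP-1 match; the other 3 windows hold no match to the 4 motifs. The forkhead motif was found in 0 of the 25 windows of these genes and in 3.65% of all 32851 windows in the table. CAAGTG was found in 4 of the 25 (Itga8, Itgb5, Lamb1 and Lamb3; 13.6% of all), TGANTCA in 3 (Itga3, Itga9 and Itgax; 7.81% of all) and GGAATG in 3 (Itga10, Itgb1 and Lamb3; 14.7% of all). A match describes the letters of the window and is not evidence of binding.

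Levels were compared between genes as CPM per kilobase (kb) of exon in vehicle libraries, averaged within each of the 8 lines. Exon length counted every annotated exon base of a gene once, such as 10745 bases for Lama3. Which transcripts were present was not tested, so the order of genes depends on that length. Itgb1, the common partner of most alpha subunits, stood at 172 ± 36.6 CPM per kb (SD, n = 8 lines). Lama5 followed at 107 ± 26.4 CPM per kb. The alpha subunits of the collagen and laminin receptors came next, with Itga2 (collagen) at 97.9 ± 70.7, Itga6 (laminin) at 89.6 ± 44 and Itga3 (laminin) at 80.6 ± 20.4 CPM per kb. Neighbours in this order mostly changed places between lines: Itga2 exceeded Itga6 in 5 of 8 lines and Itga6 exceeded Itga3 in 3 of 8, whereas Itgb1 exceeded Lama5 in 8 of 8.

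Within the laminin chains, Lama5 exceeded Lama3 (14.2 ± 9.93 CPM per kb) in 8 of 8 lines, and Lamc1 stood at 57.4 ± 13.9 CPM per kb. The beta chains were closer, with Lamb3 at 42.2 ± 15.5, Lamb2 at 36.9 ± 4.7 and Lamb1 at 17.2 ± 12.3 CPM per kb, and Lamb3 exceeded Lamb2 in 3 of 8 lines only. Lamb3 was above Lama3 in 8 of 8 lines. Among beta subunits, Itgb4 stood at 24.2 ± 11.5, Itgb6 at 7.86 ± 2.62 and Itgb5 at 6.32 ± 5.25 CPM per kb, all below Itgb1. Lama3 varied most between lines among the genes detected everywhere, 17.4-fold from line 1526C (20.9 CPM) to line 1267B (363 CPM). These lines share no title prefix, a number in the library names, so line and set of libraries cannot be told apart. Itgb5 followed at 14.1-fold and Lamb1 at 8.71-fold, whereas Lamb2 varied 1.44-fold.

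**Figure D1:**
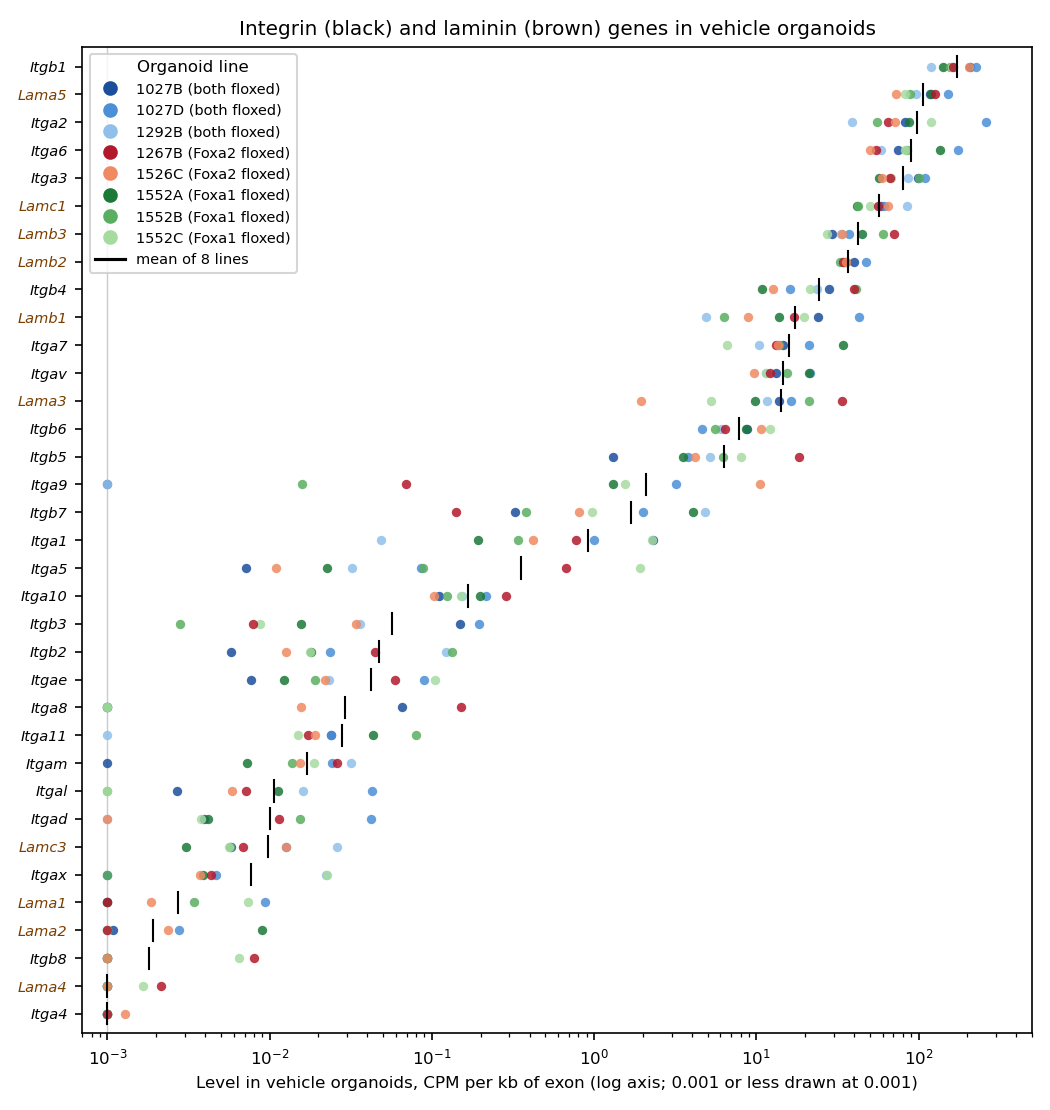
Level of 35 of the 36 genes in vehicle organoids, in CPM per kb of exon on a log axis, with 1 point per organoid line (coloured by line) and a bar at the mean of the 8 lines. The means of Itgb1 and Lama5 lie at 172 and 107 CPM per kb, and the points of Lama3 run from 1.94 to 33.7 CPM per kb.

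At least 1 CPM was found in every one of the 38 libraries for 16 genes (9 integrin and 7 laminin), and under 1 CPM in every library for 10 genes (7 integrin and 3 laminin). The 10 low genes were the leukocyte subunits Itgae, Itgal, Itgad and Itgax, the alpha subunits Itga4 and Itga11, the beta subunit Itgb8, and the laminin chains Lama1, Lama2 and Lama4. The other 10, Itga1, Itga5, Itga8, Itga9, Itga10, Itgam, Itgb2, Itgb3, Itgb7 and Lamc3, lay on both sides of 1 CPM. Itga9, which pairs with beta1 as a receptor for tenascin and osteopontin, stood at 0 CPM in the vehicle libraries of lines 1027B and 1292B and at 81.6 CPM on average in line 1526C. Together the 36 genes took 0.366% to 1.19% of the counts of a library.

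In double-floxed organoids treated with 4-OHT, 25 of the 36 genes were abundant enough to be tested, and Itgb2 rose while Itga7 fell. That is 2 of 25 against 3.9% of all 15198 genes tested (1.99% called higher and 1.91% called lower) at an adjusted p under 0.05, from edgeR's quasi-likelihood test with organoid line as a block and Benjamini-Hochberg adjustment over all genes. No laminin chain passed. The median log2 change was -0.01 over the 25 genes and 0.02 over all genes tested, and unadjusted p was under 0.05 for 8 of the 25 and for 20.3% of all genes tested. DESeq2 called 6 of the 25 (Itga2, Itga7, Itga8, Itgb2, Itgb5 and Lamc3) and 12.4% of all genes tested. In bulk RNA, fewer cells of a type and less RNA per cell cannot be told apart. The labels do not say whether repeat libraries of a line came from separate cultures, so p-values measure the spread between these libraries.

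Itga7 (ENSMUSG00000025348, chr10:128933818-128958282, GRCm38) encodes the alpha7 laminin receptor, best known from skeletal muscle. It stood at 35.6, 41.1, 25.9, 50.9 and 59.2 CPM in the 5 double-floxed 4-OHT libraries, against 121, 168, 84.4, 113 and 171 CPM in the 5 vehicle libraries. Every 4-OHT library was below every vehicle library, and the mean change was -1.43, -1.76 and -1.70 on the log2 scale in lines 1027B, 1027D and 1292B. The fitted log2 change was -1.62 (SE 0.16, 95% interval -1.98 to -1.26), 3.07-fold lower with 4-OHT, at an adjusted p of 0.0029 with edgeR. Without line 1027D it was -1.52 with an adjusted p of 0.144 (range over its 19 alternatives 1.65e-15 to 0.144), a setting in which no gene of the whole table passed. Muscle markers (Acta1, Des, Ckm, Myh11 and Acta2) summed to 1.81 to 6.36 CPM with 4-OHT and 1.37 to 6.19 CPM with vehicle. The exons of Mettl7b on the opposite strand overlap those of Itga7 by 9 of 8092 bases.

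Itgb2 (ENSMUSG00000000290, chr10:77530252-77565708, GRCm38) encodes the beta2 subunit of the leukocyte integrins. It stood at 0.685, 1.44, 4.17, 0.671 and 6.19 CPM in the double-floxed 4-OHT libraries, from 14, 29, 74, 15 and 215 reads, against 0, 0.0544, 0.371, 0.0354 and 0.0904 CPM in the vehicle libraries, from 0, 1, 7, 1 and 2 reads. The groups did not overlap, as was so for 2 of the 25 genes and 3.54% of all genes tested, and the gene was low in all 10 libraries. The fitted log2 change was 4.73 (SE 0.66, 95% interval 3.22 to 6.23) at an adjusted p of 0.0101 with edgeR. The call was lost without line 1027B (4.68, adjusted p = 0.0845) and without line 1027D (4.06, adjusted p = 0.191), and without the line block, in which fit Itga7 alone of the 36 and 0.613% of all genes passed; the range over its 19 alternatives was 5.09e-11 to 0.191. Leukocyte markers moved in part: of the list of 12, Tyrobp was at 0 in both groups, Ptprc (CD45) stood at 0.62 to 1.65 CPM with 4-OHT and 0.053 to 2.69 CPM with vehicle, Csf1r at 0.492 to 26.5 CPM with 4-OHT and 0.0354 to 1.54 CPM with vehicle, and Spi1 at 0 to 0.313 CPM with 4-OHT and 0 to 0.955 CPM with vehicle. The summed list ran from 173 to 442 CPM with 4-OHT (10 of 12 genes with a count) and from 287 to 620 CPM with vehicle (11 of 12), most of it Lcp1 at 146 to 416 and 280 to 598 CPM. The part of these cells in the Itgb2 result was not tested.

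The alpha2 subunit gene Itga2 (chr13:114833081-114932100, GRCm38) stood at 75.9, 340, 200, 471 and 571 CPM with 4-OHT, against 415, 1692, 278, 766 and 2052 CPM with vehicle in double-floxed organoids. The mean was lower with 4-OHT in 3 of 3 lines, by 1.11, 2.04 and 0.48 on the log2 scale, and the groups overlapped; line means differed 6.73-fold among vehicle libraries of all genotypes. Its fitted log2 change of -1.36 (SE 0.49) did not pass, at an adjusted p of 0.163 with edgeR. It passed with DESeq2, without the low-count filter and with a block of line and title prefix, a number in the library names (range over 19 alternatives 2.04e-07 to 0.659). Itga1, the neighbouring collagen receptor gene 21.0 kb away, was mixed across lines, with mean log2 changes of 0.68, -2.17 and 1.70.

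Other genes with a fitted change of over 1 on the log2 scale did not pass in double-floxed organoids. Itgb5, a partner of alpha v, stood at 168, 82.2, 22.2, 26.2 and 22.8 CPM with 4-OHT and 3.85, 24.5, 18.3, 5.38 and 2.62 CPM with vehicle (log2 change 2.59, SE 0.97, adjusted p = 0.175 with edgeR). The groups overlapped in 1 vehicle library of line 1027D, and the change differed between lines from 4.36 in 1027B to 0.27 in 1292B. Itga8 reached 12.8 CPM in 1 4-OHT library of line 1027B and stood at 0 in 2 of the 5 4-OHT and 3 of the 5 vehicle libraries. Lamc3 stood at 0.0979 to 1.19 CPM with 4-OHT and 0 to 0.159 CPM with vehicle, on 86 and 8 reads in all. Itga9 was seen almost wholly in line 1027D, at 0 and 0.259 CPM with 4-OHT against 10.8 and 38.5 CPM with vehicle (log2 change -6.56, SE 1.72, adjusted p = 0.078 with edgeR). Itga9 passed with the block of line and title prefix (-7.04, adjusted p = 0.0374 with edgeR), as did Itga8 and Lamc3, a fit in which 11.7% of all genes passed; adjusted p for Itga9 ran from 7.36e-13 to 0.875 over 13 alternatives.

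In Foxa2-floxed organoids, 26 of the 36 genes were tested, Itga9 fell and Itgam rose with 4-OHT. That is 2 of 26 against 3.43% of 16887 genes tested (1.89% called higher and 1.55% called lower), with a median log2 change of 0.15 over the 26 genes and -0.01 over all; 6 of the 26 and 14.2% of all genes had an unadjusted p under 0.05, and DESeq2 called 4 of the genes and 5.85% of all. Itga9 (chr9:118606690-118901003, GRCm38) stood at 0.306, 0.0622, 22.2 and 28 CPM with 4-OHT, against 0.775, 0.294, 87.9 and 75.2 CPM with vehicle, the first 2 of each from line 1267B and the last 2 from line 1526C. Both 4-OHT libraries of line 1526C were below both of its vehicle libraries, whereas line 1267B was near 0 throughout. The fitted log2 change was -1.69 (SE 0.35, 95% interval -2.42 to -0.96, adjusted p = 0.012 with edgeR). The call was lost without line 1526C (-1.66, adjusted p = 0.805), without either of that line's 4-OHT libraries (-1.58 and -1.81, adjusted p = 0.0789 and 0.0508) and without its vehicle replicate 3 (-1.61, adjusted p = 0.0595). It was lost too when the line block was dropped, when counts were summed per line and when the genotype was fitted alone (range over 17 alternatives 1.40e-07 to 1).

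Itgam (chr7:128062640-128118491, GRCm38) encodes the alpha M subunit of myeloid cells and was close to the detection limit in every library. It had 9, 26, 11 and 11 reads (0.459, 0.809, 0.354 and 0.402 CPM) in Foxa2-floxed 4-OHT libraries, against 1, 5, 2 and 2 reads (0.0516, 0.21, 0.082 and 0.0718 CPM) in vehicle libraries. The groups did not overlap (2 of the 26 genes and 2.66% of all genes tested), and the fitted log2 change was 2.22 (SE 0.57, adjusted p = 0.0403 with edgeR). The call was lost in 11 of 17 alternatives, among them without line 1267B (2.23, adjusted p = 0.15) and without line 1526C (2.20, adjusted p = 0.679), with a range of 0.0136 to 0.763. It was also lost without vehicle replicate 1, 3 or 4 and without 4-OHT replicate 2, 3 or 4, where adjusted p ran from 0.0978 to 0.128. Of the exon bases of Itgam, 68.7% are shared with Gm49368 on the same strand, so how its reads were split depends on the counting. Of the leukocyte list, Tyrobp was at 0 in both groups, Ptprc stood at 0.529 to 1.17 CPM with 4-OHT and 0.0841 to 0.671 CPM with vehicle, and Csf1r at 1.58 to 6.57 CPM with 4-OHT and 0.258 to 1.87 CPM with vehicle. The whole list summed to 166 to 237 CPM with 4-OHT (11 of 12 genes with a count) and 226 to 381 CPM with vehicle (9 of 12), most of it Lcp1, and its part in the Itgam result was not tested.

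In Foxa1-floxed organoids, 0 of 26 genes tested passed with edgeR, where 0.0118% of all 16887 genes (2 genes) passed. Unadjusted p was under 0.05 for 6 of the 26 and 11.4% of all genes, DESeq2 called 1 (Itgb5) and 1.46% of all genes, and the median log2 change was 0.12 over the 26 genes and 0.01 over all. Itgb5 stood at 31.7 to 57.7 CPM with 4-OHT (median 39.7, n = 6), against 10.6 to 34.8 CPM with vehicle (median 21.1, n = 6), and its mean was higher with 4-OHT in 3 of 3 lines, by 1.95, 0.99 and 0.32 on the log2 scale. The groups overlapped, and the fitted log2 change was 1.08 (SE 0.25, adjusted p = 0.107 with edgeR). Itga7 stood at 24.8 to 136 CPM with 4-OHT (median 76.5) and 49.2 to 331 CPM with vehicle (median 112), a fitted log2 change of -0.77 (SE 0.26, adjusted p = 0.286 with edgeR) with line means of -1.59, -0.03 and -0.69. In Foxa2-floxed organoids Itga7 stood at 64.8, 82.3, 58.1 and 74.9 CPM with 4-OHT and 99.5, 115, 93 and 126 CPM with vehicle. Those groups did not overlap, but the fitted log2 change of -0.63 (SE 0.31) did not pass (adjusted p = 0.372 with edgeR).

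**Figure D2:**
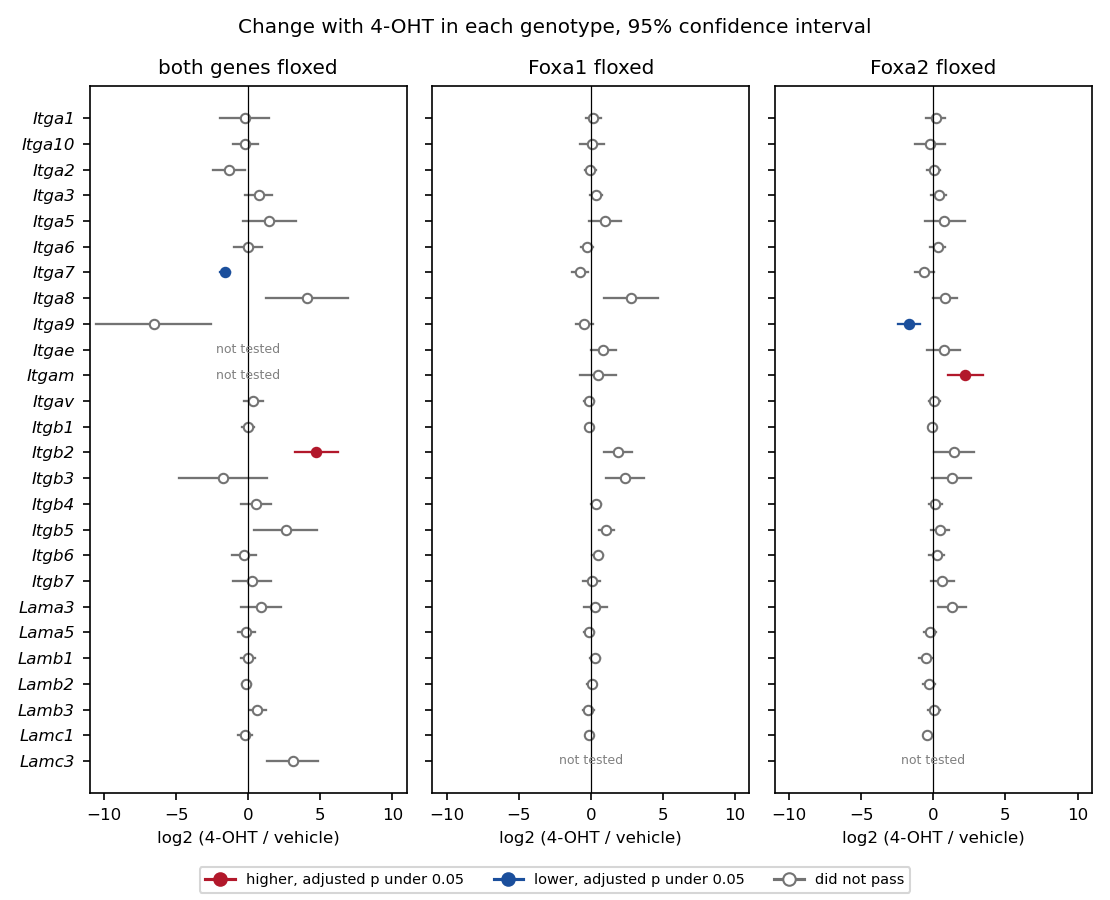
Fitted log2 change with 4-OHT over vehicle for reported genes tested in at least 1 genotype, with 95% confidence intervals, in organoids with both genes, Foxa1 or Foxa2 floxed. Filled points passed at an adjusted p under 0.05: Itgb2 (4.73) and Itga7 (-1.62) with both genes floxed, and Itgam (2.22) and Itga9 (-1.69) with Foxa2 floxed.

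Whether 4-OHT acted differently between genotypes was tested on counts summed per line and treatment, over 8 lines, where 28 of the 36 genes were tested. Every double-floxed library had title prefix 17699 or 17992 and every Foxa1-floxed library had 19659. A difference between these genotypes therefore cannot be told apart from a difference between sets of libraries. The double-floxed effect minus the Foxa1-floxed effect passed for 2 of the 28, Itga9 and Itgb6, both lower, against 1.54% of 19085 genes in either direction and 1.1% in the lower one; DESeq2 called Itga2 and Itgb6 and 9.85% of all genes, and 7 of the 28 and 17.8% of all genes had an unadjusted p under 0.05. For the double-floxed effect minus the Foxa2-floxed effect, 0 of 28 passed with edgeR (0.194% of all genes), 7 of the 28 and 8.91% of all genes had an unadjusted p under 0.05, and DESeq2 called 0 of the 28 and 2.49% of all genes. For the Foxa2-floxed effect minus the Foxa1-floxed effect, 0 of 28 passed with edgeR (0% of all genes), 0 of the 28 and 3.84% of all genes had an unadjusted p under 0.05, and DESeq2 called 0 of the 28 and 0.11% of all genes. For Itga7 the difference was -1.0 (95% interval -1.85 to -0.15, adjusted p = 0.474 with edgeR) against the Foxa2-floxed effect. It was -0.89 (95% interval -1.66 to -0.12, adjusted p = 0.223 with edgeR) against the Foxa1-floxed effect, so that neither passed. For Itgb2 the differences were 3.20 (adjusted p = 0.344 with edgeR) and 2.67 (adjusted p = 0.134 with edgeR).

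Itgb6 (chr2:60598292-60722643, GRCm38), the epithelial partner of alpha v, stood at 52.8, 44.8, 36.6, 41.8 and 11.1 CPM with 4-OHT in double-floxed organoids, against 73.6, 44, 43, 51.7 and 22 CPM with vehicle. In Foxa1-floxed organoids it stood at 41 to 120 CPM with 4-OHT (median 82.3), against 32.7 to 92.1 CPM with vehicle (median 61.8). The mean was lower with 4-OHT in 3 of 3 double-floxed lines (-0.40, -0.24 and -0.23 on the log2 scale) and higher in 3 of 3 Foxa1-floxed lines (0.63, 0.45 and 0.31), and within neither genotype did the change pass (adjusted p = 0.712 and 0.382 with edgeR). The difference between the effects was -0.84 (SE 0.15, 95% interval -1.18 to -0.50, adjusted p = 0.0369 with edgeR). The call was lost when any 1 of 7 lines was left out, with differences of -0.75 to -0.91 and adjusted p of 0.0519 to 0.155; it held without line 1267B. In Foxa2-floxed organoids Itgb6 stood at 44.9, 73.3, 82.5 and 77.5 CPM with 4-OHT, against 35.2, 55.7, 92.7 and 59.5 CPM with vehicle.

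The Itga9 difference of -6.53 (SE 1.01, adjusted p = 0.03 with edgeR) rested on line 1027D, the only double-floxed line with more than 1 read of Itga9 in a library. Without that line it was 3.34 (adjusted p = 0.45), and the call was lost as well without line 1552A, 1552B, 1552C or 1526C (-6.28 to -6.79, adjusted p = 0.0743 to 0.105) and with DESeq2 (-1.73, adjusted p = 0.715). In Foxa1-floxed organoids Itga9 stood at 0.0369 to 11.6 CPM with 4-OHT (median 6.01) and 0.0992 to 14 CPM with vehicle (median 9.3). The range of adjusted p over the 11 alternatives was 0.00123 to 0.715.

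**Figure D3:**
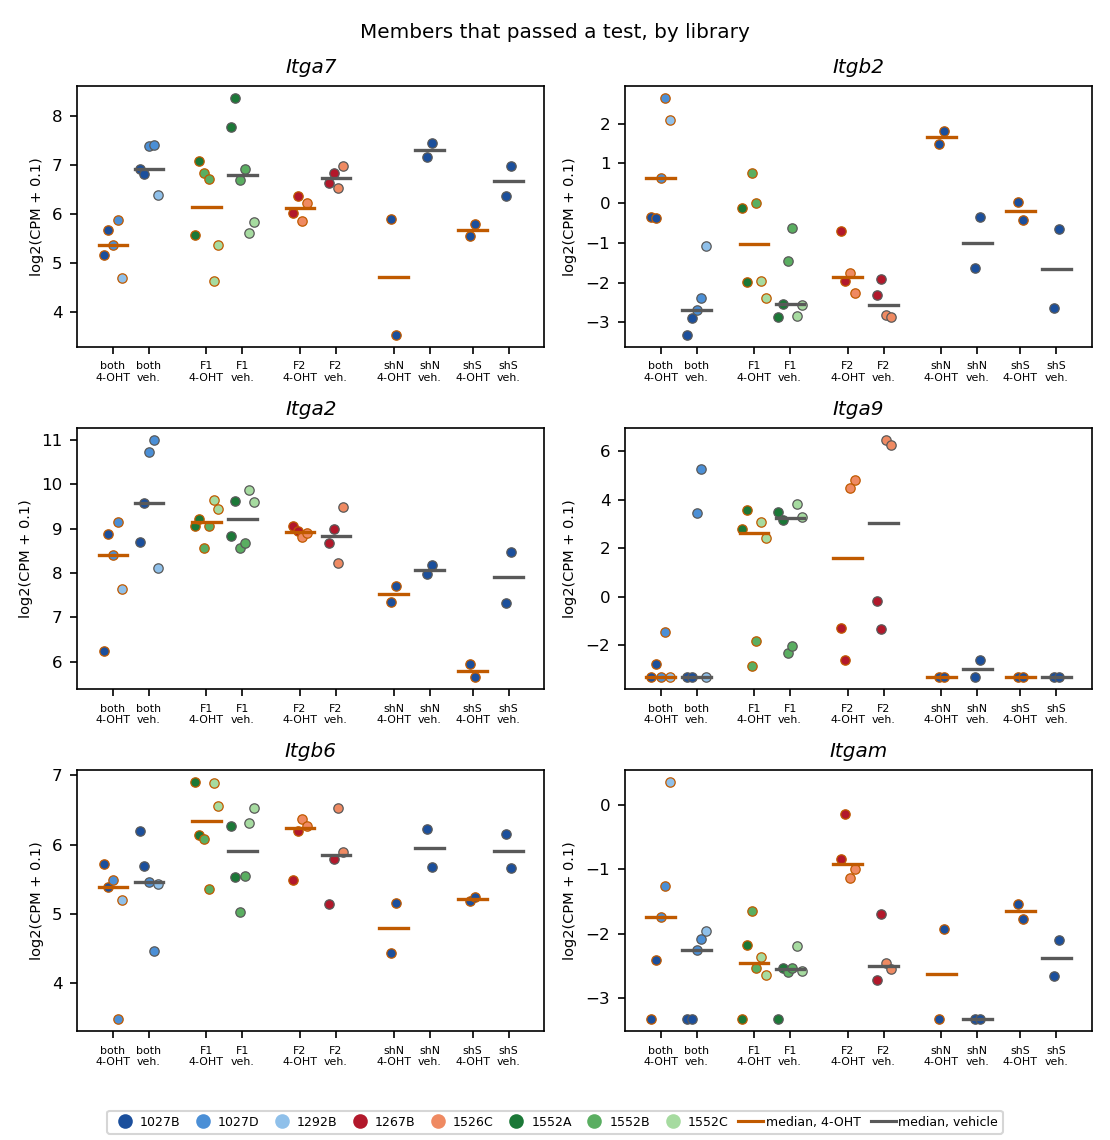
Level of the 6 genes that passed a test, as log2(CPM + 0.1), in each of the 38 libraries, with points coloured by organoid line and bars at group medians; both, F1 and F2 stand for both genes, Foxa1 or Foxa2 floxed, shN and shS for shNKX2-1 and shScramble, and veh. for vehicle. The 5 double-floxed 4-OHT libraries of Itga7 lie between 25.9 and 59.2 CPM, below all 5 vehicle libraries, and Itga9 is near 0 in all lines but 1027D, 1526C, 1552A and 1552C.

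The laminin-332 genes Lama3 and Lamb3 did not pass in any of the 3 genotypes with edgeR. Lama3 stood at 148, 175, 638, 494 and 163 CPM with 4-OHT in double-floxed organoids, against 87.9, 51.6, 124, 209 and 301 CPM with vehicle. The groups overlapped, and the log2 change was 0.88 (95% interval -0.49 to 2.25). Lamb3 stood at 238, 365, 435, 472 and 221 CPM with 4-OHT, against 186, 268, 221, 201 and 228 CPM with vehicle, a log2 change of 0.64 (95% interval 0.09 to 1.20, adjusted p = 0.182 with edgeR) with a higher mean in 3 of 3 lines.

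In Foxa2-floxed organoids, line 1267B had title prefix 17699 or 17992 and line 1526C had 19659. A difference between these lines therefore cannot be told apart from a difference between sets of libraries. Lama3 separated the 2 lines. It stood at 436 and 437 CPM with 4-OHT and 375 and 350 CPM with vehicle in line 1267B. In line 1526C it stood at 105 and 112 CPM with 4-OHT and 11 and 30.8 CPM with vehicle, a log2 change of the means of 2.37, against 0.27 in line 1267B. The fit over both lines gave 1.31 (SE 0.47, 95% interval 0.32 to 2.29, adjusted p = 0.162 with edgeR), and it passed with DESeq2, without the low-count filter and without line 1267B (range over 17 alternatives 1.42e-13 to 1). Lamb3 (log2 change 0.06, 95% interval -0.37 to 0.48) did not pass there. Lamb3 stood at 542, 433, 222 and 240 CPM with 4-OHT and 580, 351, 215 and 234 CPM with vehicle.

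Neither gene passed in Foxa1-floxed organoids, where the groups overlapped for both. Lama3 stood at 101 to 225 CPM with 4-OHT (median 134) and 52.5 to 320 CPM with vehicle (median 105). Lamb3 stood at 189 to 392 CPM with 4-OHT (median 237) and 151 to 451 CPM with vehicle (median 297). The log2 changes were 0.32 for Lama3 (95% interval -0.45 to 1.09) and -0.16 for Lamb3 (-0.51 to 0.19).

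The receptor of laminin-332, alpha6 beta4, did not pass in any genotype with edgeR either. Itga6 stood at 206, 848, 1151, 850 and 1824 CPM with 4-OHT in double-floxed organoids, against 532, 1434, 531, 815 and 1743 CPM with vehicle (log2 change -0.03, 95% interval -0.99 to 0.94). Itgb4 stood at 180, 89.9, 404, 672 and 69.5 CPM with 4-OHT, against 126, 103, 166, 268 and 123 CPM with vehicle. It was higher with 4-OHT in both libraries of line 1027B and in line 1292B and lower in both of line 1027D, and the fitted log2 change was 0.51 (95% interval -0.53 to 1.55). In Foxa2-floxed organoids Itga6 stood at 678, 385, 600 and 663 CPM with 4-OHT, against 584, 403, 333 and 569 CPM with vehicle, and Itgb4 at 235, 255, 118 and 130 CPM with 4-OHT, against 260, 300, 68.2 and 110 CPM with vehicle. In Foxa1-floxed organoids Itga6 had a median of 788 CPM with 4-OHT (535 to 868) and 808 CPM with vehicle (697 to 1564), and Itgb4 of 225 CPM with 4-OHT (110 to 280) and 150 CPM with vehicle (56.3 to 296). The groups overlapped for both genes in each genotype.

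**Figure D4:**
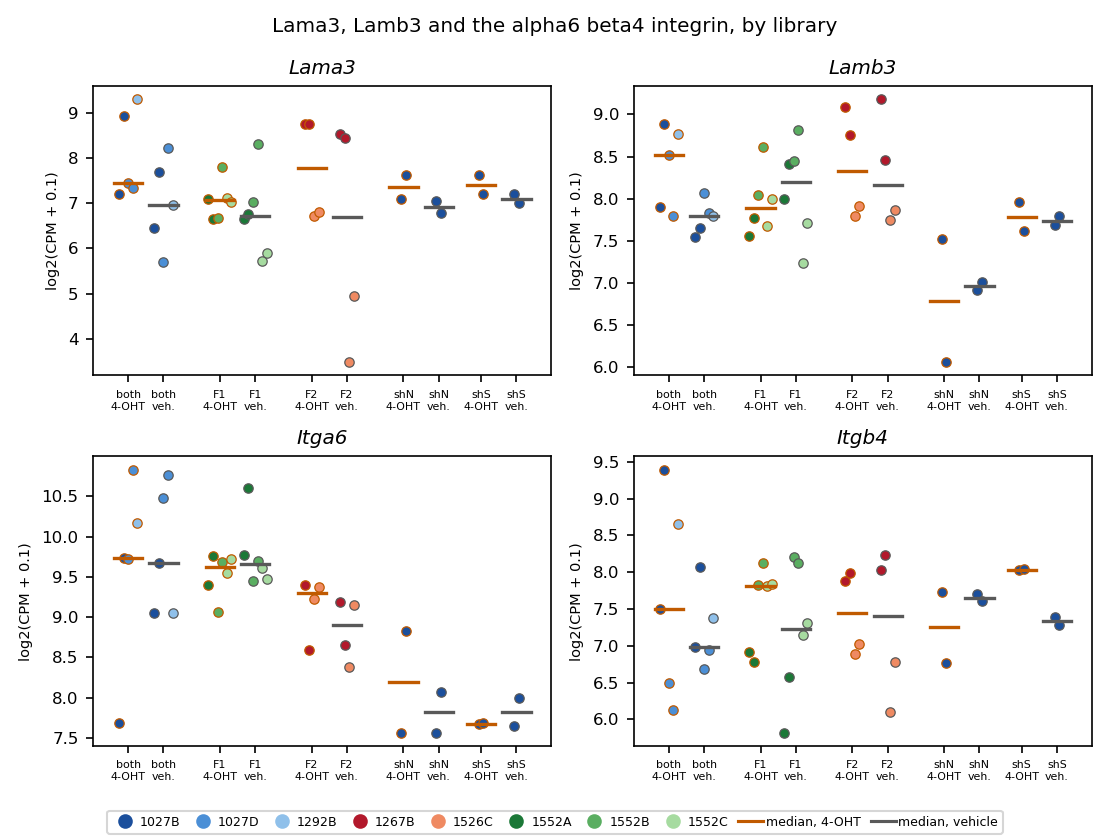
Level of the laminin-332 genes Lama3 and Lamb3 and of the alpha6 beta4 integrin genes Itga6 and Itgb4, as log2(CPM + 0.1), in each of the 38 libraries, with points coloured by organoid line and bars at group medians; group names as both, F1 and F2 for the floxed genes, shN and shS for the hairpins. Without a hairpin, the 4-OHT and vehicle points overlap in every genotype, and the vehicle libraries of line 1526C lie lowest for Lama3, at 11 and 30.8 CPM. With a hairpin some do not overlap, such as Itgb4 under shScramble, at 260 and 263 CPM with 4-OHT and 168 and 156 CPM with vehicle. Under shScramble 61.3% of all genes tested did not overlap.

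The laminin and RGD receptor subunits that alveolar epithelium is known for did not pass in any genotype with edgeR, and the interval was narrowest for Itgb1. Itgb1 stood at 724, 653, 661, 1011 and 869 CPM with 4-OHT in double-floxed organoids, against 840, 886, 488, 848 and 960 CPM with vehicle (log2 change -0.01, 95% interval -0.41 to 0.39). Its intervals were -0.33 to 0.06 in Foxa1-floxed organoids and -0.31 to 0.17 in Foxa2-floxed organoids. Itga3 stood at 358, 605, 923, 1677 and 1187 CPM with 4-OHT in double-floxed organoids, against 391, 521, 489, 739 and 728 CPM with vehicle (log2 change 0.73, SE 0.41, adjusted p = 0.366 with edgeR). The mean was higher with 4-OHT in 3 of 3 double-floxed lines, 2 of 2 Foxa2-floxed lines and 2 of 3 Foxa1-floxed lines, where the log2 changes were 0.69, -0.04 and 0.43. Itgav stood at 182, 165, 202, 279 and 253 CPM with 4-OHT, against 107, 163, 123, 180 and 299 CPM with vehicle (0.36, 95% interval -0.27 to 1.00).

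For these same genes in Foxa2-floxed organoids, Itgb1 stood at 757, 657, 710 and 707 CPM with 4-OHT, against 666, 659, 799 and 876 CPM with vehicle. Itga3 stood at 330, 728, 389 and 433 CPM with 4-OHT, against 277, 489, 293 and 391 CPM with vehicle, and Itgav at 122, 186, 91.6 and 99.8 CPM with 4-OHT, against 118, 144, 80.2 and 128 CPM with vehicle. In Foxa1-floxed organoids the median of Itgb1 was 565 CPM with 4-OHT (498 to 651) and 603 CPM with vehicle (539 to 724). For Itga3 it was 521 CPM with 4-OHT (471 to 637) and 395 CPM with vehicle (264 to 643), and for Itgav 152 CPM with 4-OHT (120 to 200) and 159 CPM with vehicle (119 to 276). The groups overlapped for each of these genes.

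Among the other laminin chains, Lamc1 came closest to passing, in Foxa2-floxed organoids, at 418, 380, 344 and 351 CPM with 4-OHT against 547, 378, 546 and 527 CPM with vehicle. Both 4-OHT libraries of line 1526C were below its vehicle libraries, and the log2 change was -0.42 (SE 0.12, adjusted p = 0.0756 with edgeR); DESeq2 called it. Lama5, Lamb1 and Lamb2 had fitted log2 changes of -0.13, -0.01 and -0.13 with both genes floxed, -0.09, 0.30 and 0.05 with Foxa1 floxed, and -0.21, -0.52 and -0.28 with Foxa2 floxed. None of these passed with edgeR.

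In the hairpin experiment, 20 of the 36 genes were tested, over 8 libraries of line 1027B. With 4-OHT against vehicle under shScramble, Itga2 fell and no other gene passed, 1 of 20 against 4.33% of 14465 genes (2.67% called lower); DESeq2 called 3 of the 20 and 7.55% of all genes, and unadjusted p was under 0.05 for 4 of the 20 and 15.2% of all genes. Itga2 stood at 61.3 and 50.2 CPM with 4-OHT, against 161 and 355 CPM with vehicle under shScramble. The groups did not overlap, as was so for 17 of the 20 genes and 61.3% of all genes tested with 2 libraries a group, and the fitted log2 change was -2.21 (SE 0.37, 95% interval -3.06 to -1.36, adjusted p = 0.0151 with edgeR). The call was lost without 4-OHT replicate 1 (-2.36, adjusted p = 0.104), 4-OHT replicate 2 (-2.07, adjusted p = 0.177) or vehicle replicate 2 of shScramble (-1.57, adjusted p = 0.0637), with a range over 11 alternatives of 2.51e-11 to 0.177; leaving a lone library in a group assumes that it varies like the other groups. In the double-floxed libraries of the same line without a hairpin, Itga2 stood at 75.9 and 471 CPM with 4-OHT, against 415 and 766 CPM with vehicle.

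Under shNKX2-1, 0 of 20 passed for 4-OHT against vehicle with edgeR, where 6.35% of all genes passed. Unadjusted p was under 0.05 for 10 of the 20 and 24.7% of all genes, and DESeq2 called 6 of the 20 and 12.3% of all genes. Itga2 stood at 163 and 209 CPM with 4-OHT, against 251 and 289 CPM with vehicle (log2 change -0.54, SE 0.36, adjusted p = 0.366 with edgeR). Itga7 stood at 59.8 and 11.5 CPM with 4-OHT, against 144 and 176 CPM with vehicle (-2.16, SE 0.63, adjusted p = 0.0867 with edgeR). Itgb6 stood at 21.5 and 35.8 CPM with 4-OHT, against 75.2 and 51.1 CPM with vehicle (-1.14, SE 0.33, adjusted p = 0.0824 with edgeR). The groups did not overlap for these 3 genes; the same was so for 14 of the 20 genes in all and for 51% of all genes tested. Itgb2 stood at 2.71 and 3.44 CPM with 4-OHT, against 0.22 and 0.688 CPM with vehicle (2.71, SE 0.80, adjusted p = 0.0889 with edgeR). Without the library of high mitochondrial share, 5 genes passed (Itga3, Itga7, Itgb5, Itgb6 and Lamb2), where 6.91% of all genes did. Without the other 4-OHT library of shNKX2-1, 13 passed, where 45.6% of all genes did.

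Between hairpins with vehicle, 0 of 20 passed with edgeR (0.235% of all genes), 3 of the 20 and 7.76% of all genes had an unadjusted p under 0.05, and DESeq2 called 0 of the 20 and 1.96% of all genes. With 4-OHT, 0 of 20 passed with edgeR (1.58% of all genes), 6 of the 20 and 13.9% of all genes had an unadjusted p under 0.05, and DESeq2 called 2 (Itga2 and Lamb1) and 4.87% of all genes. These hairpin comparisons share libraries and are not independent of each other. Itga2 with 4-OHT was higher under shNKX2-1 than under shScramble, at 163 and 209 CPM against 61.3 and 50.2 CPM, without overlap (13 of the 20 and 43.4% of all genes), but the log2 difference of 1.74 (SE 0.37) had an adjusted p of 0.0648 with edgeR. Lamb1 stood at 250 and 246 CPM with shNKX2-1 and 4-OHT, against 139 and 152 CPM with shScramble and 4-OHT (0.76, SE 0.21, adjusted p = 0.154 with edgeR). For the interaction of hairpin and 4-OHT, 0 of 20 passed with edgeR (0% of all genes), 3 of the 20 and 5.41% of all genes had an unadjusted p under 0.05, and DESeq2 called 0 of the 20 and 0.681% of all genes, the Itga2 interaction being 1.67 (SE 0.51, adjusted p = 0.719 with edgeR).

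In the hairpin libraries, several of the laminin and alpha6 beta4 genes stood apart in the library of high mitochondrial share. With shNKX2-1 and 4-OHT, Lamb3 stood at 183 and 66.6 CPM, Lama5 at 964 and 310 CPM, Itgb4 at 213 and 109 CPM and Itga6 at 189 and 453 CPM, the second value of each from that library. With shNKX2-1 and vehicle the same genes stood at 121 and 129, 1379 and 1487, 208 and 195, and 189 and 269 CPM. Lama3 stood at 136 and 199 CPM with 4-OHT and 133 and 111 CPM with vehicle under shNKX2-1. Under shScramble, Lama3 stood at 197 and 147 CPM with 4-OHT and 147 and 128 CPM with vehicle. The part of RNA quality in these values was not tested.

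Genes that work with integrins and laminins were read from 4 lists. In double-floxed organoids, 0 genes of the whole table passed without line 1027D, so every call there from these lists was lost in that fit. Each hairpin group has 2 libraries, and 1 of those with shNKX2-1 and 4-OHT had a mitochondrial share of 11.7%. Of 30 focal adhesion adaptor genes, which link integrins to actin, 0 passed with edgeR in double-floxed, Foxa1-floxed and Foxa2-floxed organoids, where 7, 4 and 4 had an unadjusted p under 0.05, beside 20.3%, 11.4% and 14.2% of all genes. Their median log2 changes were 0.24, 0.12 and -0.00, beside 0.02, 0.01 and -0.01 over all genes. Under shScramble, 1 rose and 2 fell with 4-OHT among 29 tested, beside 4.33% of all genes. Fermt2 (kindlin-2) stood at 3.06 to 4.45 CPM with 4-OHT and 0.405 to 0.825 CPM with vehicle, a log2 change of 2.58 (SE 0.53). Fermt1 (kindlin-1) stood at 116 to 135 CPM with 4-OHT and 238 to 267 CPM with vehicle, a log2 change of -1.01 (SE 0.20), and Tns4 at 37.6 to 58.5 CPM with 4-OHT and 126 to 155 CPM with vehicle (-1.55, SE 0.27). Under shNKX2-1, Fermt2 and Lims1 rose (2.95 and 1.30) and Fermt1 fell (-0.85). Between shNKX2-1 and shScramble with 4-OHT, Tns4 and Ptk2b were higher (1.99 and 1.92) and Tln2 lower (-4.27).

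Of 13 genes of hemidesmosomes and their partners, 2 rose and 1 fell with 4-OHT in double-floxed organoids among 12 tested, beside 3.9% of all genes. Their median log2 change was 0.18, beside 0.02 over all genes. Col7a1, the anchoring fibril collagen, stood at 2.2 to 117 CPM with 4-OHT and 0.475 to 34.1 CPM with vehicle (log2 change 2.13, SE 0.28, adjusted p = 0.00747 with edgeR). Krt14, a basal keratin that hemidesmosomes hold, stood at 0.245 to 204 CPM with 4-OHT and 0 to 6.52 CPM with vehicle (4.13, SE 0.62, adjusted p = 0.0123 with edgeR), and the tetraspanin gene Tspan8 at 246 to 504 CPM with 4-OHT and 471 to 1408 CPM with vehicle (-1.20, SE 0.26, adjusted p = 0.0438 with edgeR). In Foxa2-floxed organoids Krt14 and Krt5 rose (2.74 and 2.16) and none fell, where 3.43% of all genes passed. Krt14 stood there at 1.21 to 18.5 CPM with 4-OHT and 0.336 to 3.59 CPM with vehicle. Krt5 was near the detection limit, at 0.124 to 1.54 CPM with 4-OHT and 0 to 0.574 CPM with vehicle. The groups overlapped for both. In Foxa1-floxed organoids 0 of 12 passed with edgeR, beside 0.0118% of all genes, and 4 of the 12 and 11.4% of all genes had an unadjusted p under 0.05. Under shScramble Krt14 rose with 4-OHT (5.79), and with 4-OHT it was lower under shNKX2-1 than under shScramble (-4.28); under shNKX2-1 Tspan8 fell with 4-OHT (-1.22). The effect in double-floxed minus that in Foxa1-floxed organoids passed for 2 of 13, both higher, beside 1.54% of all genes in either direction.

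Of 25 basement membrane and laminin processing genes, 2 of 19 tested rose and 0 fell with 4-OHT in double-floxed organoids, where 3.9% of all genes passed. Their median log2 change was 0.62, beside 0.02 over all genes. In Foxa1-floxed organoids 0 of 21 passed with edgeR, beside 0.0118% of all genes. Unadjusted p was under 0.05 for 3 of the 21 and 11.4% of all genes, and median log2 changes were 0.19 and 0.01. Col18a1 stood at 269 to 564 CPM with 4-OHT and 78.9 to 336 CPM with vehicle (log2 change 1.02, SE 0.19), and Plau, the urokinase protease, at 143 to 709 CPM with 4-OHT and 11.4 to 197 CPM with vehicle (2.75, SE 0.51). Plau also rose in Foxa2-floxed organoids, at 106 to 219 CPM with 4-OHT and 47.9 to 57.1 CPM with vehicle (1.46, SE 0.21), and under both hairpins (1.99 and 1.68), while Mmp14 fell in Foxa2-floxed organoids (-3.02) at levels under 9 CPM. With 4-OHT, the collagen IV genes Col4a1 and Col4a2 and the matrix gene Sparc were lower under shNKX2-1 than under shScramble, Col4a1 at 20.4 to 60.5 CPM against 496 to 540 CPM (-3.68, SE 0.54). Frem2 fell with 4-OHT under shScramble (-1.85). The laminin chains themselves passed in none of these comparisons with edgeR.

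Of 26 genes for integrin ligands and TGF-beta activation, 1 of 21 tested rose and 1 fell with 4-OHT in double-floxed organoids, beside 3.9% of all genes. Their median log2 change was 0.04, beside 0.02 over all genes. Ltbp1, which stores latent TGF-beta in the matrix, stood at 1.62 to 19.4 CPM with 4-OHT and 0.475 to 1.59 CPM with vehicle (log2 change 2.7, SE 0.40). Icam1, the ligand of the beta2 integrins, stood at 21.2 to 97.6 CPM with 4-OHT and 152 to 447 CPM with vehicle (-2.66, SE 0.37), and it also fell in Foxa2-floxed organoids (-0.77) and with 4-OHT under shNKX2-1 (-2.54). Spp1 (osteopontin) rose with 4-OHT under shScramble (2.66) and under shNKX2-1 (2.75), and with 4-OHT was higher under shNKX2-1, at 1161 to 1806 CPM against 191 to 346 CPM under shScramble (2.47, SE 0.38). Vcam1 fell under shScramble (-2.08), Tgfb2 fell under shNKX2-1 (-0.99), and Tgfb3 was higher under shNKX2-1 than under shScramble with 4-OHT (1.66). Adjusted p was under 0.05 with edgeR for each of these. Of 23 tested in Foxa1-floxed organoids, 0 passed with edgeR, beside 0.0118% of all genes. Unadjusted p was under 0.05 for 10 of the 23 and 11.4% of all genes, and median log2 changes were 0.47 and 0.01.

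The 10 genes under 1 CPM in every library passed in no comparison with edgeR. Only 20 to 28 of the 36 genes were tested in a comparison, and a gene removed by the low-count filter could not pass. Their highest values in a library were 0.663 CPM for Itgae, 0.529 CPM for Itga11, 0.381 CPM for Itgal, 0.271 CPM for Itgad, 0.732 CPM for Itgax, 0.0979 CPM for Itga4, 0.314 CPM for Itgb8, 0.203 CPM for Lama1, 0.257 CPM for Lama2 and 0.816 CPM for Lama4. Itgb8, which like Itgb6 activates latent TGF-beta, was thus under 1 CPM throughout, as were Itga4 and Itgal, the lymphocyte subunits. Lama4 had 16 and 10 reads in the 2 Foxa2-floxed 4-OHT libraries of line 1267B and at most 3 in any other library with a floxed single gene. Itgb3, with Itgav a receptor for vitronectin, stayed at or under 2.26 CPM, and Itga8 in Foxa1-floxed organoids had 0 reads in all 6 vehicle libraries and at most 2 in a 4-OHT library.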

How the data were processed

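RNA-seq read counts per gene were analysed for 38 organoid libraries in 3 tables. The authors deposited raw counts; per the submitters' processing notes, STAR 2.7.6a, featureCounts 1.5.1, DESeq2 and GRCm38 were used. Whether counting used strand or shared reads is not stated in these sources. Symbols came from GENCODE by Ensembl ID (99.4% to 99.5% of IDs matched).

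Counts were tested with edgeR 4.0.16 in R 4.3.3 (filterByExpr, TMM scaling, quasi-likelihood F test), with Benjamini-Hochberg adjustment over all genes at 0.05. CPM are counts scaled to the TMM-adjusted library size. Organoid line, given in the labels, was a block in the floxed comparisons, since 4-OHT and vehicle libraries of a line share a tumour; their deviations correlated at 0.734 to 0.898. The single-floxed genotypes were fitted together. Genotype effects were set against each other on per-line sums of counts. Line changes are on log2(CPM + 0.1). The models were tested on simulated data. Alternatives were DESeq2 1.42.0, RLE scaling, no low-count filter, other blocks, and leaving out libraries or lines.

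The members and lists were chosen with earlier results of these data known. Per-library values are given for genes that passed in a comparison of groups, the laminin-332 and alpha6 beta4 genes and the alveolar integrins, except that 1 gene is counted but not reported here; from each list, up to 4 called genes per direction are named. Others, such as Itga8, Itgb3, Itgb5, Lama4 and Lamc1, were picked after their values were seen. Depth limits genes with few reads.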

Additional observations from a re-analysis of the deposited data

Results flagged for a closer look

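In 11 of 121 groups of 4 to 6 libraries, 1 library stood far from the rest, by its gap to the nearest other library relative to the group's range. Chance flags about 1 in 20 groups of independent libraries, whereas libraries of a line here share a tumour. In double-floxed 4-OHT organoids, Itga1 stood at 116 CPM in replicate 1 of line 1027B, against 2.88 to 21.4 CPM in the others, and Itga8 at 12.8 CPM in the same library, against 0 to 2.68 CPM. In double-floxed vehicle organoids, Itga9 reached 38.5 CPM in replicate 5 (line 1027D), against 0 to 10.8 CPM, and Itgb1 was lowest at 488 CPM in replicate 3 (line 1292B), against 840 to 960 CPM.

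In Foxa1-floxed organoids, replicate 4 of line 1552B was highest for Lama3 with 4-OHT (225 CPM, others 101 to 139) and with vehicle (320 CPM, others 52.5 to 130), and for Lamb3 with 4-OHT (392 CPM, others 189 to 264). Lamc1 with 4-OHT was highest in replicate 6 of line 1552C (429 CPM, others 290 to 341), and Itga6 with vehicle in replicate 2 of line 1552A (1564 CPM, others 697 to 874). In Foxa2-floxed vehicle organoids, replicate 2 of line 1267B was highest for Itga10 (2.44 CPM, others 0.492 to 0.574) and lowest for Lamc1 (378 CPM, others 527 to 547).

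The effect of 4-OHT differed between double-floxed and Foxa1-floxed organoids for Itga9 (-6.53 on the log2 scale, adjusted p = 0.03 with edgeR) and Itgb6 (-0.84, adjusted p = 0.0369 with edgeR). These genotypes share no title prefix, so genotype and set of libraries cannot be told apart. The Itga9 difference was 3.34 without line 1027D. The Itgb6 difference ran from -0.75 to -0.91 in the 7 fits without 1 line that lost the call.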

How the results depend on the processing

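Counts of called genes moved with the processing, and the cause was not tested unless named. Percentages in brackets are the share of all genes tested that passed in the same fit. In double-floxed organoids the count was 2 (3.9%). It was 6 with DESeq2 (12.4%), 9 without the low-count filter (8.01%), 1 without line 1027B (0.755%) and 0 without line 1027D (0%). Without 1 replicate it was 2 to 3 (1.45% to 3.8%). In Foxa1-floxed organoids it was 0 (0.0118%), with 1 in DESeq2 (1.46%) and 6 without the filter (3.52%). Without 1 replicate it was 0 to 0 (0.00572% to 0.126%). In Foxa2-floxed organoids it was 2, with 4 in DESeq2, 6 without the filter, 0 with counts summed per line, 0 with the genotype fitted alone, 0 without line 1526C and 0 to 3 without 1 replicate. For double-floxed minus Foxa2-floxed it was 0, with 1 without the filter and 1 without line 1027B. For double-floxed minus Foxa1-floxed it was 2; it was 0 without line 1552A, 1552B, 1552C, 1027D or 1526C and 1 without line 1027B.

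With no replicate block of line the count was 1 in double-floxed (0.613%) and 0 in Foxa2-floxed organoids (0.0305%). With a replicate block of line and title prefix it was 6 in double-floxed organoids (11.7%). Over all genes, calls in double-floxed organoids numbered 592, with 2391 without the filter, 1892 with DESeq2 and 82 with no block. The hairpin libraries share no numbers that pair them.

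Under shScramble the count for 4-OHT was 1, with 3 in DESeq2, 4 without the filter and 0 to 5 without 1 replicate. Under shNKX2-1 it was 0, with 6, 9 and 0 to 13. Between hairpins it was 0 with vehicle (0 to 0 without 1 replicate), and 0 with 4-OHT, with 2 in DESeq2, 2 without the filter and 0 to 11 without 1 replicate. For the interaction it was 0, with 1 without the filter and 0 to 9 without 1 replicate. The counts of 5, 13, 11 and 9 came without shNKX2-1 4-OHT replicate 1, which leaves the library of high mitochondrial share alone in its group; 5 came also without replicate 2.

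Of the values per gene, taken for 14 genes, 1248 kept their side of the threshold, 47 passed only in the alternative, 37 passed only in the reported fit and 2 reversed. Values that passed in neither fit counted as kept even where the sign changed. For Itga3 with 4-OHT under shNKX2-1, the log2 change was 0.68 and fell as low as -0.35. The reversed values were the Itga9 difference between double-floxed and Foxa1-floxed effects, 3.34 without line 1027D, and Itga3 between hairpins with 4-OHT, -0.95 without shNKX2-1 4-OHT replicate 1 (-0.95 to 0.65 without 1 replicate). RLE scaling changed no count.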
